A study of Rattus norvegicus with 16 samples.

Results

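The Ypel genes encode a family of 5 small proteins, and all 5 were measured among 22093 genes in the left ventricle apex of rats fed the biguanide phenformin. In these hearts Ypel2 was the member that differed most with the drug. On day 14 its mean level was 1.89-fold lower in treated than in control rats, and the 4 arrays of each group did not overlap. This difference chose the family, and in 3.09% of all genes the 4 treated arrays likewise lay below the 4 controls. On day 3 Ypel2 stood 1.29-fold lower, which did not pass the test over all genes. Ypel3, Ypel4 and Ypel5 differed by at most 1.10-fold with treatment on either day. Ypel1 was level on day 3 and 1.36-fold lower on day 14, with overlapping groups.

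The members were taken by name. The family was selected on the day 14 change of Ypel2, which had been called lower in these same data, so the day 14 values of the Ypel genes for treatment against control are given below as a description, without a test. Each member has 1 probe set with a single gene symbol, so no choice between probe sets had to be made. The symbols Ypel1 to Ypel5 are matched to RefSeq gene IDs 100360867, 360590, 293491, 502643 and 298792.

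Male RccHan Wistar rats, 7 to 8 weeks old, ate either untreated chow or chow with 3000 ppm phenformin for 3 or for 14 days. RNA of each heart was hybridised to 1 Affymetrix array, and 4 arrays, labelled as biological replicates, make up each of the 4 groups: control day 3, phenformin day 3, control day 14 and phenformin day 14. The protocol names 5 animals per group, housed 2 or 3 to a cage, and 4 arrays of each group are used here; which rats shared a cage, and the time of day of necropsy, are not given in the sources used here. Phenformin, a relative of metformin once given for diabetes, slows mitochondrial respiration at complex I. Controls were killed on the same days as treated rats, so each day has its own control group.

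Levels are the log2 of the deposited intensity, and a change is a difference of group means on that scale with the standard error (SE) of a limma fit over all 16 arrays. A gene passed the test at a Benjamini-Hochberg adjusted p under 0.05 over all 22093 genes. Probe sets differ in how strongly they respond to the same amount of RNA, so levels of the Ypel genes are compared between groups for 1 gene and not between genes. Percentiles of signal below are a coarse check of which genes give signal. All 7 measured cardiomyocyte markers, among them Actc1, Tnnt2, Ryr2 and Pln, lay at percentile 97.4 of mean signal or higher. The 4 measured adipocyte markers lay at percentiles 5.53 (Cidec), 18.1 (Adipoq), 30.2 (Plin1) and 31.2 (Lep). The median log2 signal of an array ran from 4.94 to 5.13, and any 2 arrays had r of 0.984 to 0.991. Control replicates 2 and 3 of day 3 lay farthest out on the first principal components. The tissue is a mixture, in which fewer cells of a type and less RNA per cell cannot be told apart.

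YPEL proteins are named after the Drosophila protein Yippee. They consist of little more than a single zinc-binding domain built on paired cysteines, and they are strongly conserved across eukaryotes. The same fold occurs in cereblon, the substrate receptor of an E3 ubiquitin ligase and target of thalidomide, and in the MIS18 proteins that prepare centromeres. In human cells YPEL5 is found with RANBP9 in the CTLH complex, a multi-subunit E3 ubiquitin ligase also known as GID, and YPEL3 has been described as a growth-suppressing gene that p53 can induce. In mice Ypel4 is needed for a normal red blood cell membrane.

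The start regions of Ypel2 and of Ypel3 are shown because these are the members with the largest difference on treatment and with the clearest difference between days in controls. Both come from RefSeq on build GRCr8 and run from 250 bases before to 50 bases after the gene's start, 5′ to 3′ on the gene's strand. Capitals mark GATTGG, an inverted CCAAT box, and GTAAACA, the core bound by FoxO factors.
Ypel2, chr10:72301075-72301374, minus strand: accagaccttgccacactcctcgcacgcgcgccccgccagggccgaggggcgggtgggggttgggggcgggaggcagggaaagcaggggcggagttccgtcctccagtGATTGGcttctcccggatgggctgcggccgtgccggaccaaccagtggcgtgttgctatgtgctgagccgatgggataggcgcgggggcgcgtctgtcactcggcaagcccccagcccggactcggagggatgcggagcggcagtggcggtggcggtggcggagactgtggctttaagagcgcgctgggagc
Ypel3, chr1:190814706-190815005, plus strand: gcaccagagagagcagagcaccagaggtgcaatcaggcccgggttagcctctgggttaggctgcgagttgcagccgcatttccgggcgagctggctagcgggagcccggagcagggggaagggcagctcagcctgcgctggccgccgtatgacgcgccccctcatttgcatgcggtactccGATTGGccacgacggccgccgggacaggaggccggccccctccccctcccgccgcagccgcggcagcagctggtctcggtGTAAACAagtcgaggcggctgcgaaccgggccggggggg

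Both strands were searched for each motif. GATTGG was found on the gene's strand in the regions of Ypel1, Ypel2 and Ypel3, at 89, 142 and 69 bases before the start. Of 27457 such regions in the table, 15.3% hold it on either strand. GTAAACA, present in 3.76% of all regions, was found in that of Ypel3 alone among the members, at 12 bases after the start. The AP-1 motif TGACTCA, present in 4.53%, was found in that of Ypel4 alone among the members. None of the 5 regions held the E-box CACGTG (6.65% of all), the D-box TTATNTAA (3.26%), the REV-ERB and ROR element (0.222%), the cyclic AMP element TGACGTCA (1.91%) or the TATA box TATAAA (14.3%). The GC box GGGCGG, present in 34.9%, was found in those of Ypel1, Ypel2 and Ypel5. The regions of Ypel1, Ypel2, Ypel3 and Ypel5 were between 70.7% and 73.3% G and C with 21 to 39 CG pairs, against a median of 52.3% and 7 over all regions, and that of Ypel4 was 59.3% with 3. A match of letters says nothing of binding in these hearts.

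Ypel2 on day 3 is the comparison that the choice of the family did not use. In the 4 day 3 controls its level was 10.24, 10.10, 9.97 and 10.13, and in the 4 treated hearts 9.57, 9.64, 9.79 and 9.97. Treated hearts lay at the low end, and the ranges touched only at treated replicate 4, which was at 9.975 against 9.969 in control replicate 3. The means were 10.11 ± 0.11 (SD, n = 4) and 9.74 ± 0.18. The log2 change of Ypel2 was -0.37 (SE 0.114, 95% interval -0.61 to -0.12), with an adjusted p of 0.217 in limma and an unadjusted p of 0.00533. It did not pass the test over all genes, and 3.25% of all genes had a lower change on that day.

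**Figure D1:**
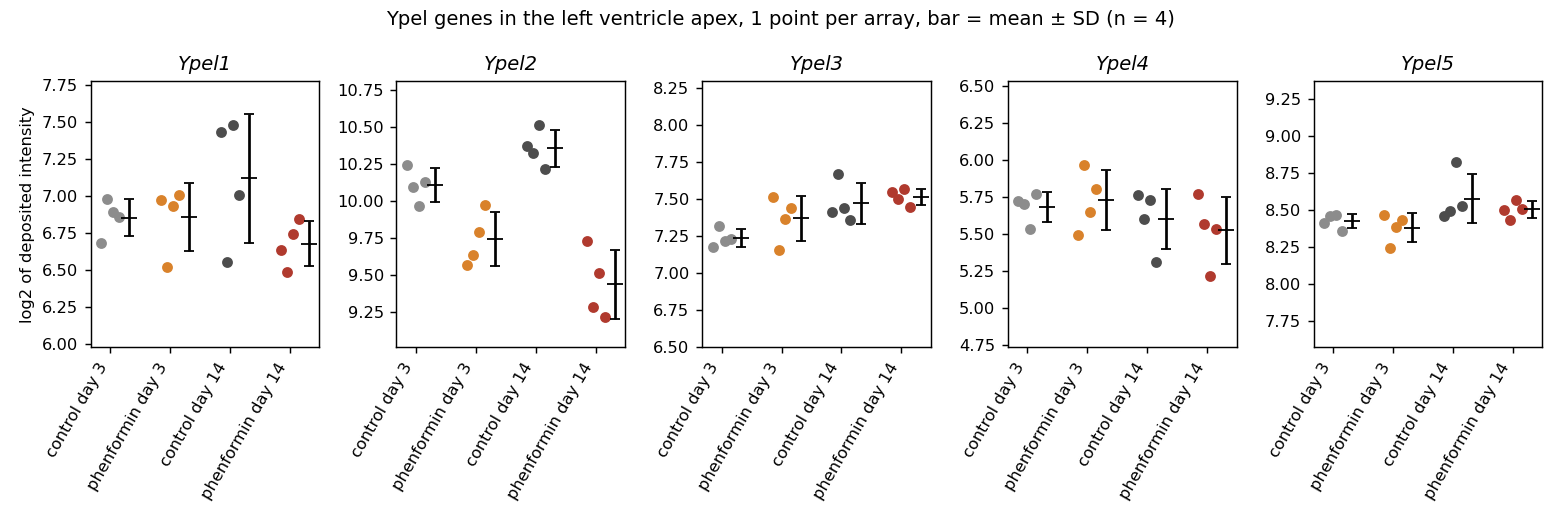
Log2 level of each Ypel gene in the 16 arrays, by group (4 arrays each). Points are arrays and bars are the mean ± SD, and every panel spans the same number of log2 units. Ypel2 sits lowest in the phenformin day 14 group, at 9.22 to 9.73, and highest in the day 14 controls, at 10.21 to 10.51.

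On day 14 Ypel2 was at 10.37, 10.32, 10.51 and 10.21 in the controls and at 9.73, 9.28, 9.52 and 9.22 in the treated hearts. The highest treated heart lay below the lowest control. The means were 10.36 ± 0.12 and 9.44 ± 0.23 (SD, n = 4), a log2 change of -0.92 (SE 0.114, 95% interval -1.16 to -0.68), or 52.9% of the control signal. Of the 5 members, 1 was past the threshold in this contrast, against a background of 0.0724% of all genes, and this is the value that chose the family. With only the 8 arrays of that day fitted, 0 members and 1 gene in all were past it. Also in 1 of the 5, Ypel2, the 4 treated arrays lay below the 4 controls, as they did in 3.09% of all genes.

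Ordered by mean, Ypel2 was highest in day 14 controls, followed by day 3 controls, day 3 treated hearts and day 14 treated hearts. Neighbours in this order overlapped in every case: day 14 and day 3 controls met between 10.21 and 10.24, day 3 controls and treated hearts at 9.97, and both treated groups between 9.57 and 9.73. From day 3 to day 14 the level differed by 0.25 (SE 0.114) in controls and by -0.31 (SE 0.114) in treated hearts. The day 14 change minus the day 3 change was -0.55 (SE 0.161, 95% interval -0.89 to -0.21). These comparisons contain the day 14 arrays on which Ypel2 was chosen and are given without a test.

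**Figure D2:**
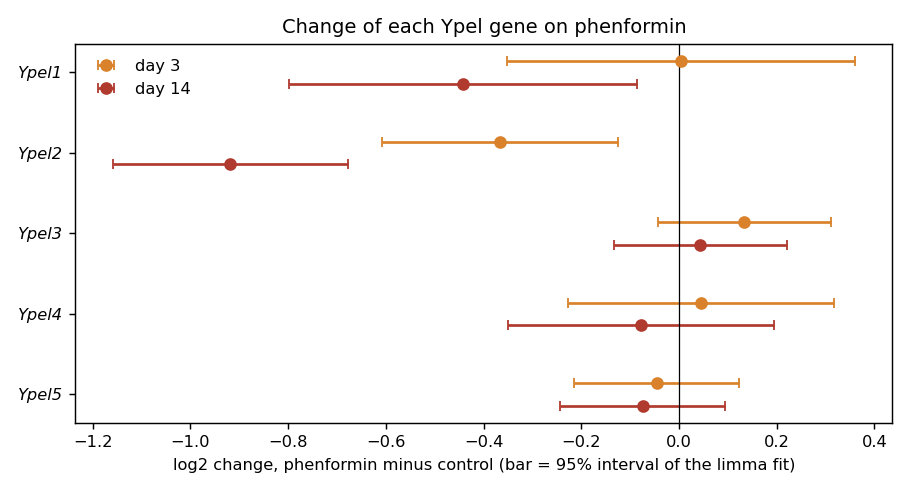
Log2 change of each Ypel gene, phenformin minus control, on day 3 and day 14 (4 against 4 arrays). Points are the change and bars its 95% interval in the limma fit; the Ypel2 interval runs from -0.61 to -0.12 on day 3 and from -1.16 to -0.68 on day 14, and the points of Ypel3, Ypel4 and Ypel5 lie between -0.08 and 0.13 on both days.

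The nearest measured genes on either side of Ypel2, in the RefSeq gene order of GRCr8, differed less with treatment. Gdpd1, the next gene, had a log2 change of -0.07 (SE 0.104) on day 3 and of 0.05 (SE 0.104) on day 14. Dhx40, an RNA helicase gene with 4 unmeasured genes in between, had 0.08 (SE 0.0954) and 0.15 (SE 0.0954). Neither gene passed the limma test on either day, with adjusted p between 0.606 and 0.918.

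Among 10783 candidate genes of at least median signal, the patterns most like that of Ypel2 over the 16 arrays were those of Mdh1 (Pearson r 0.85, Spearman rho 0.84), Bmal1 (0.84 and 0.83) and Snap29 (0.84 and 0.83). Mdh1 encodes cytosolic malate dehydrogenase, Bmal1 the activator of the circadian clock and Snap29 a membrane fusion protein. Bmal1 was at 10.47 ± 0.14 and 9.97 ± 0.14 (SD, n = 4) in day 3 controls and treated hearts, and at 10.51 ± 0.096 and 9.86 ± 0.41 on day 14. Its log2 changes were -0.49 (SE 0.15) and -0.65 (SE 0.15), and those of Snap29 were -0.14 (SE 0.0885) and -0.49 (SE 0.0885). Much of the likeness lay between the groups: with the group means taken off, r with Ypel2 was 0.43 for Mdh1, 0.50 for Bmal1 and 0.29 for Snap29. On that scale the highest r with Ypel2 were those of Stard9 (0.83), Thsd1 (0.82) and Slc12a2 (0.79). Over all 16 arrays their r with Ypel2 was -0.22, 0.46 and -0.20. Unlike Ypel2, Stard9 and Slc12a2 were higher on phenformin on both days. Their log2 changes on day 3 and day 14 were 0.24 and 0.33 for Stard9 and 0.24 and 0.22 for Slc12a2. Those of Thsd1 were 0.20 and -0.22.

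The opposite pattern was shown most closely by Zfp37 (r -0.85), Stc2 (-0.85) and Prkg1 (-0.85). Stc2, which encodes the secreted glycoprotein stanniocalcin 2, was at 8.26 ± 0.096 and 8.74 ± 0.12 (SD, n = 4) in day 3 controls and treated hearts. Its log2 change was 0.48 (SE 0.104) on day 3 and 0.67 (SE 0.104) on day 14. Prkg1, a cyclic GMP-dependent protein kinase, had changes of 0.23 (SE 0.0847) and 0.42 (SE 0.0847). All these genes were picked out of the table for their likeness over the same 16 arrays, so their values are a description, without a test.

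Ypel1, whose human counterpart lies near the region deleted in DiGeorge syndrome, was at 6.68, 6.98, 6.89 and 6.86 in day 3 controls and at 6.98, 6.52, 6.93 and 7.01 in day 3 treated hearts. The control values lay within the range of the treated ones, and treated replicate 2 stood low. The log2 change of Ypel1 on day 3 was 0.0044 (SE 0.168, 95% interval -0.35 to 0.36), with an adjusted p of 0.998 in limma.

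On day 14 Ypel1 was at 7.44, 6.55, 7.48 and 7.00 in controls and at 6.64, 6.49, 6.74 and 6.84 in treated hearts. Controls 1, 3 and 4 lay above every treated heart, and control 2 lay below 3 of the 4. The means were 7.12 ± 0.43 and 6.68 ± 0.15 (SD, n = 4), a log2 change of -0.44 (SE 0.168). It was -0.63 without control replicate 2 and -0.32 without control replicate 3.

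The patterns most like that of Ypel1 over the 16 arrays were those of Car2 (r 0.87, rho 0.81), Hbbl1 (0.86 and 0.76) and Dgcr6 (0.85 and 0.88). Car2 encodes a carbonic anhydrase that is abundant in red blood cells, and Hbbl1 is named as a beta globin gene. Dgcr6 lies on chromosome 11, as Ypel1 does, with 49 annotated genes between them in GRCr8. With the group means taken off, r with Ypel1 was 0.83, 0.86 and 0.80. Dgcr6 had a log2 change of 0.0041 on day 3 and of -0.65 (SE 0.164) on day 14.

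Red blood cell markers moved with Ypel1 from heart to heart. Of 15 listed markers, 11 were measured, and 10 of the 11 correlated above 0 with Ypel1, from -0.17 for Tfrc to 0.81 for Alas2, the first enzyme of haem synthesis in red cell precursors. The mean log2 of the 11 markers was 9.12, 8.66, 9.64 and 9.12 in day 14 controls 1 to 4, so that control 2 was low and control 3 high in both. In day 14 treated hearts it was 8.76, 8.20, 8.74 and 8.76, again lowest in replicate 2. Ypel1 and this mean had r 0.70 and rho 0.62 over 16 arrays, r 0.77 with the group means taken off, and r 0.47 without the 2 arrays farthest from the median. The log2 of the summed marker signal lay between 19.14 and 19.59 in day 14 controls and between 18.42 and 19.24 in day 14 treated hearts. On day 3 it lay between 19.31 and 19.55 in controls and between 19.20 and 19.43 in treated hearts. Of the 11 markers, 0 passed the limma test on either day, and 11 on day 3 and 10 on day 14 were below 0, with medians of -0.37 and -0.45 against 0.00014 and -0.03 over all genes. An unadjusted p under 0.05 was found in 4 and 9 of the 11, against 9.38% of all genes on day 3 and 10.8% on day 14. The part of red blood cells in the Ypel1 levels was not tested.

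**Figure D3:**
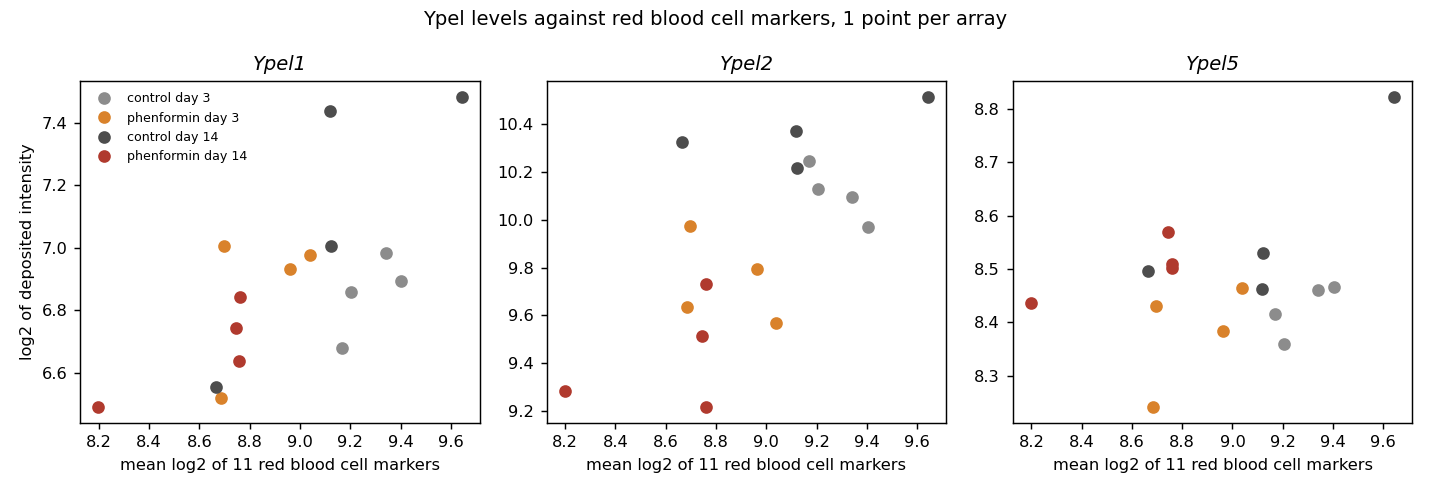
Log2 level of Ypel1, Ypel2 and Ypel5 (vertical) against the mean log2 level of 11 red blood cell markers (horizontal), 1 point for each of the 16 arrays, coloured by group. Over all arrays r was 0.70 for Ypel1, 0.67 for Ypel2 and 0.41 for Ypel5, and with the group means taken off 0.77, 0.19 and 0.75. Ypel3 (r -0.43) and Ypel4 (r 0.061) are not drawn.

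For Ypel2 the same relation had r 0.67 over 16 arrays and 0.19 with the group means taken off. On day 14 the mean log2 of the markers lay between 8.66 and 9.64 in controls and between 8.20 and 8.76 in treated hearts. The Ypel2 levels lay between 10.21 and 10.51 in these controls and between 9.22 and 9.73 in these treated hearts. The part of red blood cells in the Ypel2 difference was not tested.

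Ypel3 was at 7.18, 7.32, 7.22 and 7.23 in day 3 controls and at 7.51, 7.16, 7.36 and 7.44 in day 3 treated hearts. Replicates 1, 3 and 4 of the treated hearts lay above every control, and replicate 2 below all of them. The log2 change of Ypel3 was 0.13 (SE 0.0836, 95% interval -0.04 to 0.31) with an adjusted p of 0.701 in limma. On day 14 the values were 7.42, 7.67, 7.44 and 7.36 in controls and 7.55, 7.50, 7.57 and 7.45 in treated hearts, a log2 change of 0.04 (SE 0.0836). Treated hearts lay within the range of the controls. With the mean of the red blood cell markers, Ypel3 had r -0.43 and rho -0.53 over 16 arrays. This r was -0.12 with the group means taken off and -0.56 without the 2 arrays farthest from the median.

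Between day 3 and day 14, Ypel3 was the only member whose control arrays did not overlap, and 4.65% of all genes were apart in this way. The means were 7.24 ± 0.061 and 7.47 ± 0.14 (SD, n = 4), a log2 change of 0.24 (SE 0.0836), with an unadjusted p of 0.0121 and an adjusted p of 0.36 in limma. In treated hearts the day 14 arrays stood 0.15 (SE 0.0836, adjusted p = 0.71 in limma) above those of day 3, with overlap. The rats differ in age and in time on study between the days, which cannot be told apart.

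The patterns most like that of Ypel3 over the 16 arrays were those of Ezh1 (r 0.91, rho 0.86), Inpp5k (0.89 and 0.81) and Card6 (0.87 and 0.86). Ezh1 encodes a histone methyltransferase of the Polycomb complex and Inpp5k an inositol phosphatase that dampens insulin signalling. Ezh1 was at 10.43 ± 0.12 and 10.68 ± 0.15 (SD, n = 4) in day 3 controls and treated hearts, and at 10.80 ± 0.15 and 10.76 ± 0.035 on day 14. With the group means taken off r was 0.87, 0.74 and 0.73. These genes were picked for their likeness over the same 16 arrays, so the values are a description, without a test.

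Ypel4 lay between 5.22 and 5.96 in all 16 hearts, below the median signal of all genes. On day 3 it was at 5.72, 5.70, 5.54 and 5.77 in controls and at 5.49, 5.96, 5.65 and 5.80 in treated hearts. The log2 change of Ypel4 was 0.04 (SE 0.128, 95% interval -0.23 to 0.32) with an adjusted p of 0.963 in limma. On day 14 the values were 5.76, 5.60, 5.73 and 5.31 in controls and 5.77, 5.57, 5.22 and 5.54 in treated hearts, a log2 change of -0.08 (SE 0.128). Groups overlapped throughout. Ypel4 has a known place in red blood cells. With the mean of the red cell markers its level had r 0.061 and rho -0.059 over 16 arrays. Its signal is low, and the part of red blood cells in it was not tested. The gene most like Ypel4 was Arhgef3 (r 0.88, rho 0.86, and r 0.87 with the group means taken off), ahead of Kif26a (r 0.82) and Dip2a (r 0.78).

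Ypel5 was the steadiest member, with a standard deviation of 0.10 within groups, lower than that of all but 14.8% of genes. On day 3 it was at 8.42, 8.46, 8.47 and 8.36 in controls and at 8.46, 8.24, 8.38 and 8.43 in treated hearts. The log2 change of Ypel5 was -0.05 (SE 0.0796, 95% interval -0.21 to 0.12) with an adjusted p of 0.926 in limma. On day 14 the values were 8.46, 8.50, 8.82 and 8.53 in controls and 8.50, 8.44, 8.57 and 8.51 in treated hearts, a log2 change of -0.07 (SE 0.0796). Control 3, the heart with the most red blood cell transcripts, stood above the rest, and Ypel5 and the red cell mean had r 0.75 with the group means taken off. Over all 16 arrays r was 0.41, and it was -0.0011 without the 2 arrays farthest from the median, 1 of which was that heart.

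The patterns most like that of Ypel5 were those of Crebl2 (r 0.86, rho 0.63), Lacc1 (0.86 and 0.85) and Hgsnat (0.82 and 0.61). Without the 2 arrays farthest from the median of the gene in question, r was 0.51, 0.76 and 0.56. Genes named as most like Ypel1, Ypel4 and Ypel5 were picked over the same 16 arrays, so their values are a description, without a test. Among the members themselves, the 10 pairs had r between -0.40 (Ypel3 and Ypel4) and 0.55 (Ypel1 and Ypel5) over the 16 arrays. Ypel1 and Ypel2 had r 0.54, and 0.19 with the group means taken off.

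In all, 0 of the 5 Ypel genes passed the limma test on day 3, where 0.566% of all genes did, and 1 had an unadjusted p under 0.05, as 9.38% of all genes had. In none did the 4 treated arrays all lie below the 4 controls on day 3, as they did in 3.87% of all genes. Between the days, 0 of the other 4 members passed in controls, where 0% of all genes did and 9.46% had an unadjusted p under 0.05. Likewise 0 of these 4 passed in treated hearts, where a single gene, Pir, passed (0.00453% of all genes). No member had day 3 and day 14 treated arrays apart, against 4.33% of all genes. The differences between the day 14 and the day 3 effect were -0.45 (SE 0.238) for Ypel1, -0.09 (SE 0.118) for Ypel3, -0.12 (SE 0.181) for Ypel4 and -0.03 (SE 0.113) for Ypel5. Each had an adjusted p of 0.751 or more in limma, and 0% of all genes passed.

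The first related list held the subunits of the CTLH ubiquitin ligase, the complex in which human YPEL5 is found. All 10 listed were measured, and 0 passed in limma on day 3 or day 14. Their median change was 0.02 on day 3 and 0.03 on day 14, against 0.00014 and -0.03 over all genes, and 1 of the 10 had an unadjusted p under 0.05 on each day, near the share over all genes (9.38% and 10.8%). Ranbp10, a scaffold subunit, had -0.22 (SE 0.0921) on day 3 and -0.15 (SE 0.0921) on day 14. Ranbp9, the scaffold through which YPEL5 was found, had 0.25 (SE 0.132) on day 3. Gid8 had -0.20 (SE 0.0917) on day 14, with a limma adjusted p of 0.431.

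Of 6 listed substrates or partners of CTLH, 5 were measured and 0 passed on either day in limma. Nmnat1, a nuclear enzyme of NAD synthesis, had a log2 change of -0.31 (SE 0.105) on day 3 and of -0.31 (SE 0.105) on day 14, with limma adjusted p of 0.273 and 0.279. Hbp1, a transcriptional repressor, had 0.13 (SE 0.078) and 0.03 (SE 0.078). The list's medians were -0.16 and 0.03. On each day 1 of the 5 had an unadjusted p under 0.05, against 9.38% and 10.8% of all genes.

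The 3 listed relatives with the same protein fold, Crbn, Mis18a and Oip5, were all measured, and 0 passed on either day in limma. On each day 1 of the 3 had an unadjusted p under 0.05, against 9.38% and 10.8% of all genes. Crbn, cereblon, had 0.08 (SE 0.108) on day 3 and -0.04 (SE 0.108) on day 14. Oip5, a MIS18 subunit of dividing cells, had -0.39 (SE 0.154) and 0.18 (SE 0.154), and Mis18a had -0.13 (SE 0.0944) and -0.21 (SE 0.0944). Beside Oip5 on day 3 stood the genes of dividing cells, of which 6 of 8 fell in limma, where 0.566% of all genes were called and 102 of these 125 were lower. Among them Mki67 had a log2 change of -2.75 (SE 0.389, limma adjusted p = 0.00674) and Top2a of -1.89 (SE 0.27, limma adjusted p = 0.0068). The median change of the 8 genes of dividing cells was -0.77 on day 3. On day 14 it was -0.09, and 0 of the 8 passed in limma, where 0.0724% of all genes did.

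**Figure D4:**
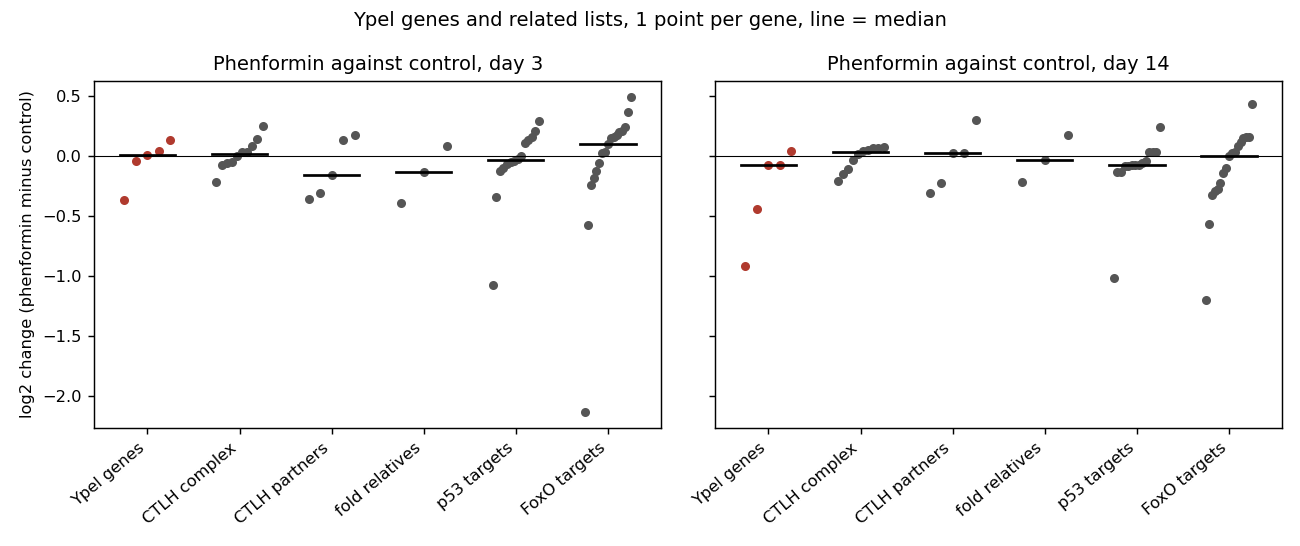
Log2 change, phenformin minus control, of the 5 Ypel genes and of the measured members of 5 related lists, on day 3 (left) and day 14 (right). The lists hold 10 CTLH subunits, 5 CTLH partners, 3 fold relatives, 14 p53 targets and 17 FoxO targets, the last with Foxo1, Foxo3 and Foxo4 among them. Each point is a gene and each line a median; the medians of the Ypel genes were 0.0044 and -0.08, and the lowest point among them on both days is Ypel2.

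Targets of p53, the factor described as inducing YPEL3, held 14 measured genes of 19 listed symbols, and 0 passed in limma on day 3 or day 14. An unadjusted p under 0.05 was found in 3 and 1 of the 14, against 9.38% and 10.8% of all genes. On day 3, 5 of the 14 were above 0 and 9 below, and on day 14, 4 above and 10 below. Cdkn1a, the cell cycle inhibitor p21, had log2 changes of -1.07 (SE 0.316) and -1.02 (SE 0.316), with limma adjusted p of 0.182 and 0.238. Fas went the other way on day 3, with 0.29 (SE 0.0879, limma adjusted p = 0.186), and had 0.03 (SE 0.0879) on day 14. The list's medians were -0.03 and -0.07, against Ypel3 changes of 0.13 and 0.04.

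The list of FoxO targets, which also holds the factor genes Foxo1, Foxo3 and Foxo4, was measured in 17 of 17 members. In limma 0 passed on either day. An unadjusted p under 0.05 was found in 7 of the 17 on day 3 and 5 on day 14, against 9.38% and 10.8% of all genes, with medians of 0.10 and 0.003. On day 3, 11 of the 17 were above 0 and 6 below. Irs2, an insulin receptor substrate, had -2.13 (SE 0.492, limma adjusted p = 0.0671) on day 3, and Tsc22d3 had -0.57 (SE 0.154) on day 3 and -0.57 (SE 0.154) on day 14. Ccng2 had 0.24 (SE 0.0724) and Gabarapl1 0.36 (SE 0.114) on day 3. From day 3 to day 14 in controls, 15 of the 17 were above 0, Foxo1, Foxo3 and Foxo4 among them. The median was 0.25, against 0.014 over all genes. In limma 0 passed while 7 had an unadjusted p under 0.05, against 9.46% of all genes. Gabarapl1, an autophagy gene, stood 0.71 (SE 0.114, limma adjusted p = 0.0659) higher there. Any relation of FoxO factors to the Ypel3 levels was not tested.

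Other gene groups differed between the groups beside the Ypel genes. Immediate early genes respond quickly to handling and other stimuli. The mean log2 of 10 such genes lay between 7.38 and 9.02 in day 3 controls and between 6.83 and 7.09 in day 3 treated hearts. All 10 were below 0 on day 3, with a median change of -0.82. In limma 2 fell, Nr4a1 and Atf3, where 0.566% of all genes were called. Fibroblast markers were below 0 in 8 of 8 on day 3, with a median change of -0.74, and 0 passed in limma while 5 had an unadjusted p under 0.05, against 9.38% of all genes. The log2 of their summed signal lay between 16.92 and 17.15 in day 3 controls and between 16.34 and 16.87 in day 3 treated hearts. Macrophage markers were also below 0 in 8 of 8 on day 3, with a median of -0.30. Of these 8, 0 passed in limma while 4 had an unadjusted p under 0.05, against 9.38% of all genes. The log2 of their summed signal lay between 11.04 and 11.31 in day 3 controls and between 10.77 and 11.12 in day 3 treated hearts. On day 14 the median changes of the immediate early, fibroblast and macrophage lists were -0.13, -0.24 and -0.03, against -0.03 over all genes. In limma 0 of their genes passed, and 3 of 10, 0 of 8 and 2 of 8 had an unadjusted p under 0.05, against 10.8% of all genes. Platelet markers had a median of -0.13 on day 3, with 0 of 6 at an unadjusted p under 0.05 in limma. On day 14 all 6 measured platelet markers were below 0, with a median of -0.77. Of these, 0 passed in limma while 6 had an unadjusted p under 0.05, against 10.8% of all genes. The log2 of their summed signal lay between 8.78 and 10.11 in day 14 controls and between 8.03 and 8.75 in day 14 treated hearts. The part of these groups in the values of the Ypel genes was not tested. Without control replicates 2 and 3 together, a choice made after seeing the data, the day 3 change of Ypel2 was -0.44, with a limma adjusted p of 0.558.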

How the data were processed

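Hearts of 16 male rats, 4 in each of 4 groups, were measured on 1-colour Affymetrix arrays, per the labels' protocols, with 300 ng of RNA labelled for each. Each deposited value is a linear probe set intensity, made with RMA (version not stated), per the submitters' processing notes. Log2 of the deposited intensity was taken without a pseudocount. GEO's platform annotation gave 23446 of 68842 probe sets a single gene symbol, 505 several and 44891 none. Symbols were updated to RefSeq by gene ID, and the brightest single-symbol probe set stood for each of 22093 genes. limma 3.58.1 in R 4.3.3 fitted 1 mean per group over all 16 arrays with a trended prior, and p-values were adjusted by Benjamini and Hochberg over all genes. It was tested on simulated data. The precision is limited by the 4 arrays of a group. Named genes were the Ypel genes, up to 4 of each list by smallest p, the 3 most correlated with each member, for Ypel2 also the 3 of lowest r and the 3 of highest r within groups, and its nearest measured neighbours. Pir, the only gene called in its contrast, and the cell type markers that check the tissue were named after their values were seen. The members and lists were chosen with earlier results of these data known. The replicate numbers of the titles were checked for pairing: deviations of the 24 same-numbered pairs of arrays had r from -0.11 to 0.26, with 6 over 0.1, and were not used as a block. Alternatives covered filters, probe set choice, normalisation, array weights and left-out arrays.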

Additional observations from a re-analysis of the deposited data

Results flagged for a closer look

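In the phenformin day 3 group, replicate 2 stood apart from the other 3 hearts in Ypel1, at 6.52 against 6.93 to 7.01. Its gap to the nearest other heart made up 0.849 of the group's range, above Dixon's 95% critical value for 4 samples. This was 1 of 20 combinations of gene and group examined, and chance flags about 1 in 20. The same heart was the lowest of its group in Ypel5 (8.24), in Ypel3 (7.16) and in the mean of the red blood cell markers (8.68), and the highest in Ypel4 (5.96). Replicate 4 had nearly the same red cell mean (8.70) with the highest Ypel1 of the group (7.01). The part of red blood cells in these values was not tested. Without treated replicate 2 the day 3 change of Ypel1 was 0.12 and that of Ypel3 was 0.20.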

How the results depend on the processing

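The day 3 change of Ypel2 stayed below 0 in 29 of 29 alternatives, from -0.44 to -0.31, with limma adjusted p from 0.14 to 0.558. Its day 14 change lay between -1.02 and -0.85. When only the 8 arrays compared were fitted, 0 Ypel genes were past the threshold on day 14 instead of 1, and 1 gene in all instead of 16. Of 485 alternative values of 17 tested quantities, 0 passed and 13 changed sign, all of them near 0. The day 3 change of Ypel1 was -0.014 after quantile normalisation and -0.021 with array medians aligned, and lay between -0.053 and 0.12 leaving out 1 array at a time. Leaving out 1 array at a time gave -0.034 to 0.12 for Ypel4 on day 3, -0.074 to 0.00062 for Ypel5 on day 3, -0.13 to 0.016 for Ypel4 between the days in controls, and -0.075 to 0.054 for the Ypel5 difference of effects. That difference was 0.026 with array medians aligned, and Ypel4 on day 3 was -0.019 without both control arrays that stood apart. The number of genes past the threshold on day 3 was 125, with a range from 3 without both of these arrays to 181 with array weights; on day 14 it ranged from 1 to 60, the latter without genes under the 50th percentile, a filter that removes Ypel4. With the replicate number as a block it was 113 on day 3 and 5 on day 14, the adjusted p of Ypel2 on day 3 was 0.269, and 0 and 1 Ypel genes were past the threshold; 6 of 16 arrays correlated best with their own number. An order of the Ypel genes by level was not run, since an array sets no level of a probe set against another's. The cause of these shifts was not tested.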
